A study of Mus musculus with 2 samples.

Results

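The 10 genes described here make up the core of the Hedgehog pathway, namely the ligand gene Shh, the receptor gene Ptch1, the decoy receptor gene Hhip, the co-receptor genes Boc and Gas1, the signal transducer gene Smo, the transcription factor genes Gli1, Gli2 and Gli3, and Sufu, which encodes a protein that restrains the Gli factors. They were chosen by name as ligand, receptors, co-receptors and effectors of the pathway, and all 10 were found among the 22180 named genes of the array table. RNA from dorsal skin was hybridised to 1 array for a mouse group given FGF18 and 1 array for a saline control group. Both samples came from male BALB/cAJcl mice aged 7 weeks, and the series text describes removal of dorsal hair to start a new growth phase (anagen) of the follicles. The FGF18 group received 100 µg of FGF18, a fibroblast growth factor, by intraperitoneal injection in saline with 5 µg/µl heparin, 6 days after depilation. It was then exposed to 6 Gy of γ-rays over the whole body 24 h after the injection, and skin was taken 4 h later. For the saline control the labels do not state whether heparin or radiation was given, nor when skin was taken after depilation. The number of mice behind either array is not stated either. FGF18, heparin, radiation and time after depilation therefore cannot be told apart as sources of a difference. Neither group has a replicate, so no value below has a standard error or a p-value, and each difference compares these 2 arrays only.

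In the growing hair follicle, Shh is secreted by epithelial cells of the hair matrix and signals to neighbouring epithelial cells and to the dermal papilla, the mesenchymal cluster at the base of the follicle. Without ligand, Ptch1 keeps Smo inactive, and the Gli factors are held back by Sufu and cut into repressors. Ligand binding to Ptch1, helped by Boc, Gas1 and Cdon, releases Smo, and full-length Gli2 and Gli3 then act on target genes, among which Ptch1, Gli1 and Hhip are the classic ones. The pathway is known for driving the down-growth of the follicle at the start of anagen.

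Of the 7 members with an entry in the RefSeq promoter table (build GRCm38.p6), 3 are printed here, since Ptch1 and Gli3 had the largest differences among members with an entry and Gli2 was alone in holding the GLI core. Each window runs from 250 bases before to 50 bases after the start site, 5′ to 3′ on the strand of the gene. Capitals mark the GLI core (ACCACCC, or GGGTGGT on the opposite strand) and the GC box (CCGCCC, or GGGCGG on the opposite strand), and these motifs overlapped nowhere in the printed windows. The windows are chr13:63565686-63565985 on the minus strand for Ptch1, chr13:15463473-15463772 on the plus strand for Gli3 and chr1:119053570-119053869 on the minus strand for Gli2.
Ptch1: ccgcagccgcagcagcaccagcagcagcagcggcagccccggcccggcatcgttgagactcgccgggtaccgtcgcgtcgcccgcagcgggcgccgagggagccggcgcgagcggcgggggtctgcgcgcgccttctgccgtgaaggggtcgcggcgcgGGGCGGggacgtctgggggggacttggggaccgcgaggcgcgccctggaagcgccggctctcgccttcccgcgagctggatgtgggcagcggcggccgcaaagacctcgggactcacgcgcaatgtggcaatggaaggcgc
Gli3: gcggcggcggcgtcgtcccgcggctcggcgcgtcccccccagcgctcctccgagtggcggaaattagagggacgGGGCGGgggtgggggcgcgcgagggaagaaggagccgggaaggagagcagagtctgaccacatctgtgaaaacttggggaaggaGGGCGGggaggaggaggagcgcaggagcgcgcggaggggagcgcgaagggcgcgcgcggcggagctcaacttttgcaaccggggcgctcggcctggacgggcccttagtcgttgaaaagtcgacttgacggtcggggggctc
Gli2: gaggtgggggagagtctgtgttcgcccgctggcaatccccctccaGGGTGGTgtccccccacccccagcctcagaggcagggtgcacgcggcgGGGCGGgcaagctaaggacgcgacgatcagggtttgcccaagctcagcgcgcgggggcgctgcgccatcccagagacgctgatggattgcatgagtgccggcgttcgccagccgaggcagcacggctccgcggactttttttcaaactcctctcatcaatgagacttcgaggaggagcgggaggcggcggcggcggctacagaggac

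The full GLI consensus (GACCACCCA, or TGGGTGGTC on the opposite strand), which contains the core, was found in none of the 7 member windows and in 0.253% of the 32851 windows of the table. The core was found in 1 of the 7, that of Gli2, and in 4.61% of all windows. The GC box, a motif of many promoters, was found in 6 of the 7 members, all but Smo, and in 35.7% of all windows. The CCAAT box (CCAAT, or ATTGG on the opposite strand) was found in Gas1 and Sufu and in 37.4% of all windows. The member windows were 56.3% (Sufu) to 76.3% (Ptch1) G and C, against a median of 52.7% over all windows. These matches describe the letters of the windows only.

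Most Hedgehog genes read higher on the FGF18 array than on the saline array, led by Ptch1, Gli1 and Gli3. Of the 10 members 8 were higher and 2, Gas1 and Sufu, were lower, with the clusters of Sufu on opposite sides, where 49.5% of all named genes were higher and 45.5% lower. Ptch1, Gli1 and Gli3 were at least 1.5-fold higher (2.61% of all named genes), none was at least 1.5-fold lower (4.15%), and none reached 2-fold in either direction (0.257% higher, 1.06% lower). The median difference over the 10 members was 0.34, against 0.00 over all named genes. In bulk skin, fewer cells of a type and less RNA per cell cannot be told apart. Each difference is the log2(intensity + 1) value on the FGF18 array less that on the saline array, and this scale understates the folds of dim genes.

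Brighter genes as a whole leaned towards the FGF18 array, and 9 of the 10 members were among the 11090 genes at or above the median level. Of those genes 59.4% were higher and 38.0% lower, and their median difference was 0.07. At least 1.5-fold differences were found in 3.64% of them higher and 4.63% lower, and at least 2-fold differences in 0.379% higher and 1.65% lower. The 9 members at this level divided into 7 higher and 2 lower, and the member below it was Shh, whose values lie under both array medians. After subtraction of the trend of difference on level, 8 members still lay above 0, and Ptch1 alone reached 1.5-fold, at 0.64. With a pseudocount of 16 in place of 1, which weighs dim values down, no member reached 1.5-fold and Ptch1 stood at 0.57. Shares over all genes were not computed under either setting, here or below. The shares above therefore do not apply to counts under these settings.

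**Figure D1:**
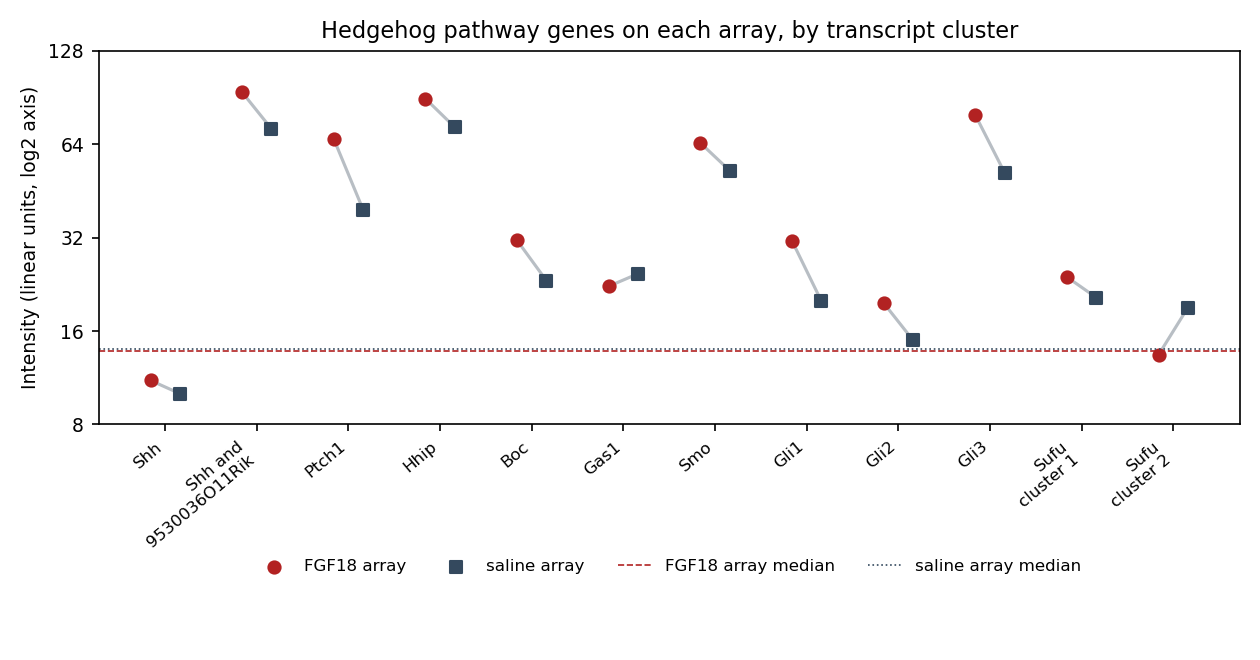
Intensity of each transcript cluster of the Hedgehog genes (linear units on a log2 axis), with the FGF18 array as a red circle left of the saline array as a blue square, and the array medians as broken lines. All clusters but those of Gas1 and the second of Sufu lie higher on the FGF18 array, and the cluster that names Shh alone lies below both medians.

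The ligand gene was measured by a pair of transcript clusters that differ in what they hold. The cluster annotated to Shh alone read 11.1 on the FGF18 array and 10.1 on the saline array. Both values lie below their array's median intensity (13.8 and 14.0), so this cluster is not shown above background and no fold is given for it. A further cluster, annotated both to Shh and to the RIKEN transcript 9530036O11Rik, read 94.0 on the FGF18 array and 71.7 on the saline array, a difference of 0.39 (1.31-fold). It was far above both medians, but its signal cannot be assigned to Shh rather than to the other transcript.

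The receptor gene Ptch1, whose promoter opens the set printed above, had the largest difference of the 10. It read 66.5 on the FGF18 array and 39.4 on the saline array, a difference of 0.74 (1.67-fold). Among the 11090 genes at or above the median level, 1.42% had a difference at least as high. Hhip, which encodes a membrane protein that binds and sequesters Hedgehog ligand, read 89.7 on the FGF18 array and 72.6 on the saline array. Its difference of 0.30 (1.23-fold) was less than that of Ptch1, and 19.5% of genes at that level had at least as high a difference. Both genes encode inhibitors that act on the ligand or on Smo at the membrane, and both read higher on the FGF18 array.

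The co-receptor genes lay on opposite sides. Boc, which encodes an immunoglobulin-family co-receptor, read 31.3 on the FGF18 array and 23.3 on the saline array, a difference of 0.42 (1.33-fold). Gas1, which encodes a lipid-anchored co-receptor of the cell surface, read 22.3 on the FGF18 array and 24.5 on the saline array, a difference of -0.13. Cdon, which encodes the relative of Boc in the same co-receptor group, read 23.3 on the FGF18 array and 20.0 on the saline array, a difference of 0.21. Smo, the transducer that Ptch1 holds inactive, read 64.6 on the FGF18 array and 52.6 on the saline array. Its difference of 0.29 (1.22-fold) was equalled or passed by 20.6% of genes at or above the median level.

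All 3 Gli genes read higher on the FGF18 array. Gli1, an activator whose own transcription is the usual readout of the pathway, read 31.2 on the FGF18 array and 20.0 on the saline array, a difference of 0.62 (1.54-fold). Gli3, which acts largely as a repressor when ligand is absent, read 79.5 on the FGF18 array and 51.8 on the saline array, a difference of 0.61 (1.52-fold). Gli2, the main activator in the follicle, read 19.7 on the FGF18 array and 15.0 on the saline array. Its difference was 0.38 (1.30-fold), and its saline value lay close to the array median of 14.0. Of genes at or above the median level, 2.96% had a difference as high as that of Gli1, 3.07% one as high as that of Gli3 and 13.0% one as high as that of Gli2.

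Sufu, the inhibitor of the Gli factors, had 2 clusters that went opposite ways. The first read 23.9 on the FGF18 array and 20.5 on the saline array, a difference of 0.21. The second read 13.4 on the FGF18 array and 19.0 on the saline array, and the FGF18 value lay below that array's median. The gene's averaged difference of -0.13 therefore hides a distance of 0.69 between its clusters, and no direction can be given for Sufu. Over 319 symbols with several clusters at or above the median level, clusters of the same symbol scattered around their mean difference with a standard deviation of 0.24. Of the 10 members, 7 differed by more than that amount and Shh, Gas1 and Sufu by less, but this figure says how far probe sets disagree and nothing of how animals vary.

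**Figure D2:**
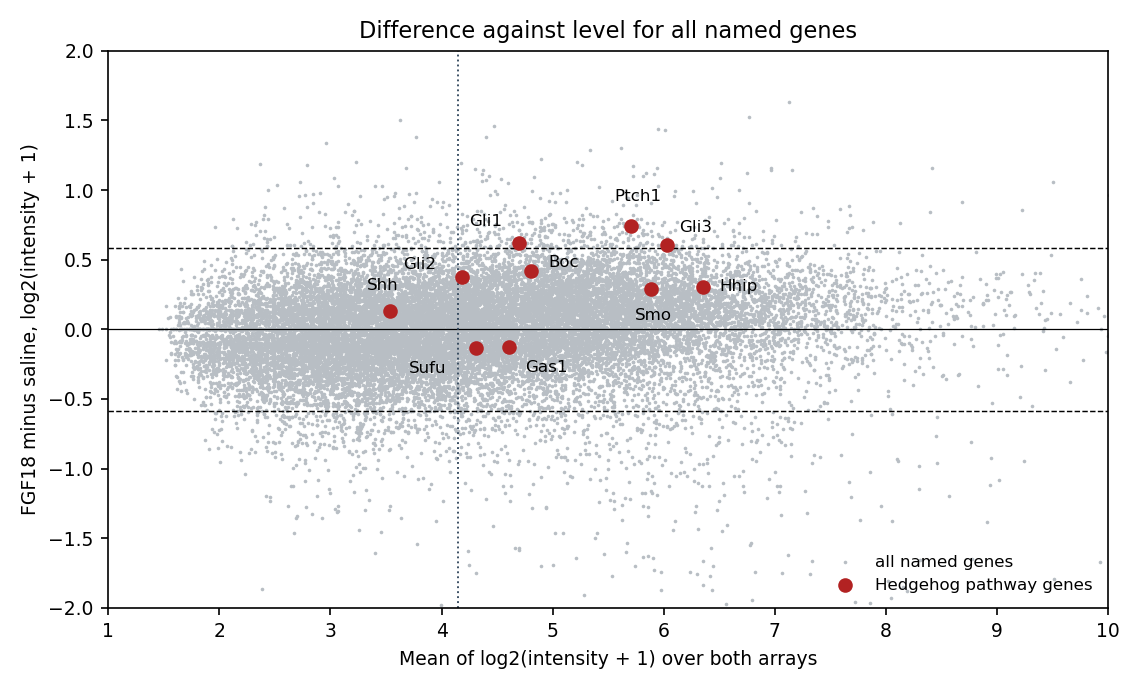
Difference (FGF18 minus saline, log2 scale) against the mean level over both arrays for all 22180 named genes in grey, with the 10 Hedgehog genes in red. Broken lines mark 1.5-fold and the dotted line the median level, and 85 genes lie outside the axes. Ptch1, Gli1 and Gli3 lie above the upper broken line, and the other members lie within the main body of genes.

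Other genes of the pathway read higher more often than genes of the array at large. Of all named genes 49.5% were higher, at a median difference of 0.00. Over 104 measured genes in 5 lists outside the 10 members, 70 were higher (67.3%) and 32 lower, with 2 equal, and the median difference was 0.13. Of these, 82 were at or above the median level, and 59 of the 82 (72.0%) were higher with a median of 0.15, against 59.4% and 0.07 for all genes at that level. Of the 104, 6 were at least 1.5-fold higher (5.77%) and 1 lower, against 2.61% higher and 4.15% lower over all named genes. None reached 2-fold. After trend subtraction 67 lay above 0 and the median was 0.07, with no share over all genes computed for that setting. Nothing particular to the pathway is read from these shares.

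Genes of ligand production and release were close to even, with 5 of 8 higher, a median of 0.08 and none at 1.5-fold. Only Ihh and Scube1 of the 8 were at or above the median level, and their median was -0.002. Ihh, the ligand gene best known from cartilage and also made in sebaceous glands, read 52.1 on the FGF18 array and 57.2 on the saline array, a difference of -0.13. Dhh, the ligand gene of Schwann cells and testis, read 6.65 on the FGF18 array and 6.95 on the saline array, both below the array medians. Scube1, which encodes a secreted protein of the family that helps release Hedgehog ligands, was at 0.13. Neither of the other ligand genes read higher on the FGF18 array.

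Among other receptors and membrane binders, 6 of 9 measured genes were higher, with a median of 0.21 and none at 1.5-fold. That median was 0.18 after trend subtraction, 0.098 with a pseudocount of 16 and 0.10 with the brightest cluster of each gene. Gpc3, a glypican that competes with Ptch1 for ligand, read 36.3 on the FGF18 array and 26.6 on the saline array, a difference of 0.43. The glypican gene Gpc1 stood at 0.33 and Mgrn1, which encodes a ligase that limits Smo at the cell surface, at 0.29. The lowest at this level were the glypican gene Gpc4 at -0.07, the Smo regulator gene Mosmo at -0.05 and the glypican gene Gpc6 at 0.10.

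Of 29 measured genes of intracellular transduction 21 read higher, and the median was 0.14. After trend subtraction 18 lay above 0 with a median of 0.08, and with a pseudocount of 16 the median was 0.07. Most of the list (27 genes) was at or above the median level, where 59.4% of all genes read higher. Rab23, which encodes a GTPase that restrains the pathway, read 44.4 on the FGF18 array and 31.1 on the saline array, a difference of 0.50. Gpr161, a ciliary receptor that likewise restrains it, was at 0.36, and the beta-arrestin gene Arrb1 at 0.33. At the other end Evc, which encodes a partner of Smo at the base of the cilium, was at -0.40, the Gli kinase gene Ulk3 at -0.37 and Cul3, the scaffold of the ligase that degrades Gli proteins, at -0.33. The list's gene at 1.5-fold was Iqce, which encodes a further part of the Evc complex. It read 21.4 on the FGF18 array and 13.7 on the saline array, the second value below the array median, and it is named after its values were seen. Genes of activators and of restraining proteins were found at both ends of the list.

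The primary cilium is the organelle in which Smo and the Gli proteins meet. Of 39 measured cilium genes 28 read higher, 9 read lower and 2 were equal, and the median was 0.15. Among the 33 at or above the median level 26 were higher, with a median of 0.18, where 59.4% of all genes read higher. At that level 3 of the list were at least 1.5-fold higher and 1 lower, against 3.64% and 4.63% of all genes. The intraflagellar transport genes Ift46 and Ift27 stood at 0.65 each and Ift80 at 0.60, and these were the 3 at least 1.5-fold higher. The lowest were Ift20, a transport gene with a further role at the Golgi, which read 108 on the FGF18 array and 169 on the saline array (difference -0.64), and the transition zone genes Rpgrip1l at -0.52 and Tctn2 at -0.20. After trend subtraction 28 lay above 0 and the list's median was 0.07.

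Reported Hedgehog target genes, taken from several tissues, were divided almost evenly. Of 19 measured genes outside the members 10 were higher and 9 lower, and the median was 0.05. Among the 13 at or above the median level 8 were higher, with a median of 0.15, and over the 19 the median was 0.004 after trend subtraction and 0.02 with a pseudocount of 16. The D-type cyclin gene Ccnd2 read 270 on the FGF18 array and 153 on the saline array, a difference of 0.82 (1.77-fold). Jag2, which encodes a Notch ligand of the hair matrix, was at 0.59 (1.51-fold) and the cyclin gene Ccnd1 at 0.52. The growth factor gene Igf2 was at -0.36, the glucocorticoid-inactivating enzyme gene Hsd11b2 at -0.10 and the mitotic transcription factor gene Foxm1 at -0.03. These genes also have many inputs other than Hedgehog.

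**Figure D3:**
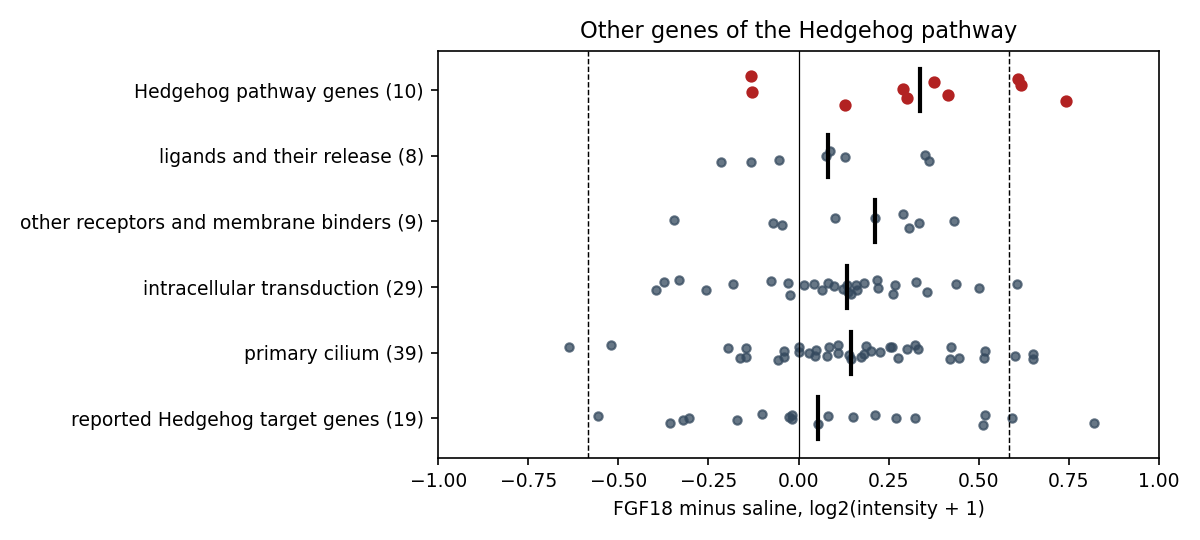
Differences (FGF18 minus saline, log2 scale) of the 10 Hedgehog genes in red and of 5 lists of other pathway genes in blue, with the number measured in brackets. Each point is a gene, black bars are medians and broken lines mark 1.5-fold. The medians of the other lists run between 0.05 and 0.21, below that of the 10 members at 0.34.

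Markers of the hair-forming layers of the follicle differed in the same direction as most Hedgehog genes, with higher medians. The labelled tissue is skin, and 9 of 9 markers of differentiated epidermis, 9 of 9 of fibroblasts and 8 of 9 of the inner root sheath were above both array medians. All 9 inner root sheath genes were higher, at a median of 0.96, with Krt28 highest at 1.16 and Krt25 lowest of the brighter ones at 0.85. Their summed intensity was 6235 on the FGF18 array and 3141 on the saline array. Hair matrix regulators had 5 of 7 higher, a median of 0.67 and sums of 544 on the FGF18 array and 394 on the saline array, with Hoxc13 at 1.09 and Ovol1 at -0.23. Hair shaft keratins had 11 of 12 higher, a median of 0.50 and sums of 1127 on the FGF18 array and 748 on the saline array, from Krt31 at 1.22 to Krt81 at -0.47. No marker of any list was at 0 on either array.

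The list of outer root sheath and follicle stem cell markers had 6 of 10 higher and a median of 0.26. Its sums were 1296 on the FGF18 array and 943 on the saline array. Krt75, a keratin of the companion layer, was highest at 1.12, and Nfatc1 was lowest at -0.24. The list also holds Tcf3 at 0.34 and Tcf4 at -0.005. These mouse symbols name E-protein genes rather than the follicle factors Tcf7l1 and Tcf7l2. Its count, median and sums are therefore not of outer root sheath and stem cells alone. Dermal papilla markers, from cells that receive the Shh signal, had 8 of 14 higher and a median of 0.12, with sums of 784 on the FGF18 array and 606 on the saline array. Wif1, a Wnt inhibitor gene, led those above both array medians at 0.78, and Rspo2 was lowest at -0.10. Among fibroblast markers 6 of 9 were lower, and the median was -0.33, with sums of 1107 on the FGF18 array and 1222 on the saline array, from Lum at -0.95 to Dcn at 0.42. Basal epidermal markers had a median of 0.09 and sums of 953 on the FGF18 array and 1125 on the saline array, with Col17a1 at 0.39 and Krt14 at -0.81.

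Markers of differentiated epidermis were the list farthest from the Hedgehog genes, with 9 of 9 lower and a median of -1.71. Their summed intensity was 4240 on the FGF18 array and 15662 on the saline array, with Krt1 at -2.96 and Lor at -0.95. Sebaceous gland markers had a median of 0.00 (sums of 667 on the FGF18 array and 730 on the saline array), with Awat1 at 0.11 and Elovl3 at -0.28. The median of skeletal muscle markers was -0.06 (sums of 5221 on the FGF18 array and 5622 on the saline array), with Myh1 at 0.36 and Casq1 at -1.14. That of nerve and Schwann cell markers was -0.08 (sums of 66.3 on the FGF18 array and 70.1 on the saline array), with Pmp22 at -0.02 and Sox10 at -0.20. The part of follicle content in the Hedgehog differences was not tested. The median over the 10 members (0.34) lay below those of the inner root sheath (0.96), the hair matrix regulators (0.67) and the hair shaft keratins (0.50). It lay above those of all other marker lists, including the dermal papilla (0.12).

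**Figure D4:**
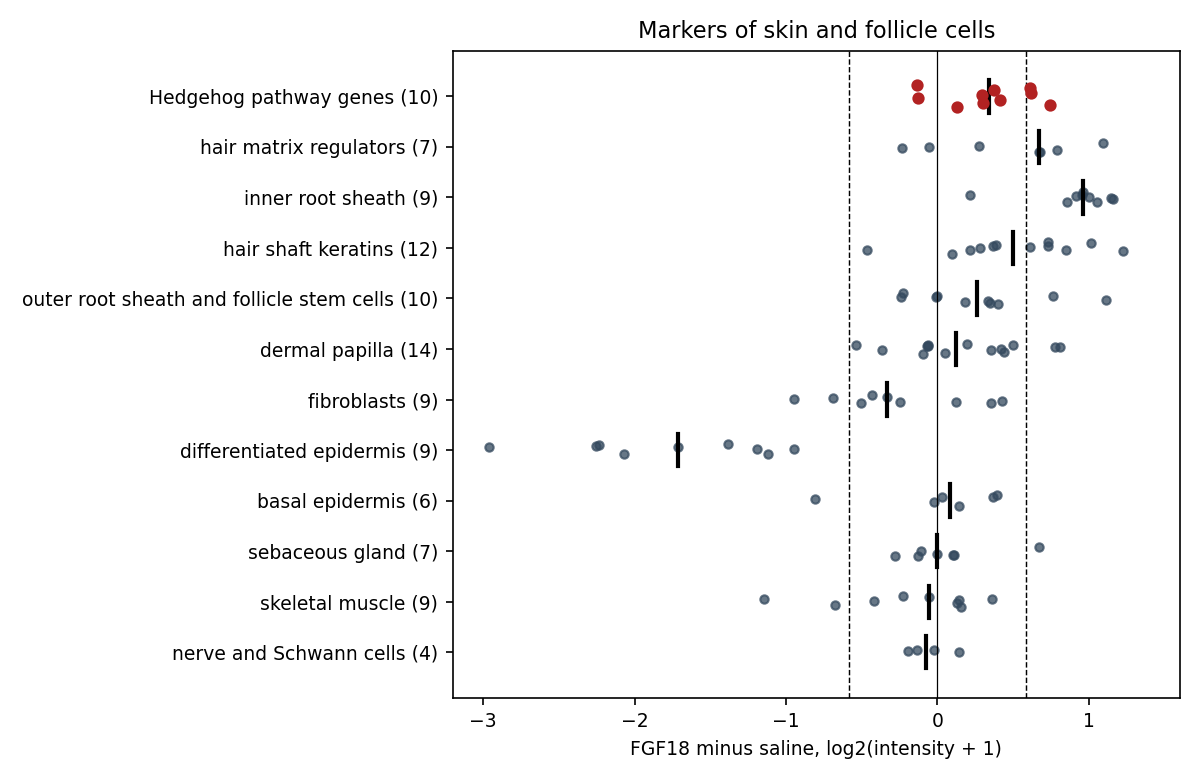
Differences (FGF18 minus saline, log2 scale) of the 10 Hedgehog genes in red and of 11 marker lists of skin and follicle cells in blue, with the number measured in brackets. Each point is a gene, black bars are medians and broken lines mark 1.5-fold. The hair-forming lists lie on the same side as the Hedgehog genes, with medians of 0.50 to 0.96, and differentiated epidermis lies on the other at -1.71.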

How the data were processed

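The deposited table holds intensities of 41345 transcript clusters of the Affymetrix Mouse Gene 2.0 ST array for both samples. Groups came from the sample labels. Affymetrix Expression Console and RMA were used by the authors, per the submitters' processing notes, and no version or genome build is given. The linear scale was judged from the values, which reach 11532. Arrays have no read depth, and 1 per group limits the precision.

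Clusters with exactly 1 symbol in the platform annotation (23521) were used, intensities were turned into log2(intensity + 1), and clusters of a symbol were averaged on that scale, which gave 22180 genes. The median level over genes was 4.15 (log2), and the level trend was fitted by lowess with a fraction of 0.3 (statsmodels 0.14.6). No test was possible, and folds of 1.5 and 2 served as thresholds. The steps were also run on simulated data with known shifts. The only requirement was the right sign of these shifts after trend subtraction.

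The members and lists were chosen with earlier results of these data known. All members were named, and from each pathway list the 3 highest and 3 lowest genes above both array medians, besides Ihh, Dhh and Cdon. From each marker list the highest and lowest such genes were taken. Outside this rule, Iqce and Snai1 were named after their values were seen, and Tcf3 and Tcf4 because of their symbols. Promoters came from RefSeq by symbol (7 of 10 members matched). Alternatives were pseudocounts of 16 and 0, centring, trend subtraction, the brightest cluster, clusters with several symbols, and genes at or above the median level.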

Additional observations from a re-analysis of the deposited data

How the results depend on the processing

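Each of the 10 member differences was recomputed under 6 alternatives. Ptch1 ran from 0.57 to 0.76, Gli3 from 0.49 to 0.62, Gli1 from 0.39 to 0.64, Boc from 0.27 to 0.43, Gli2 from 0.21 to 0.40, Hhip from 0.20 to 0.31 and Smo from 0.19 to 0.30, and Gas1 stayed below 0, from -0.17 to -0.08. Sufu was at 0.21 with its brightest cluster and below 0 under the other 5. The number of members at least 1.5-fold higher was 0 with a pseudocount of 16 and 1 after trend subtraction, against 3. With a pseudocount of 16 the cilium list had 0 genes at 1.5-fold in either direction, the transduction list 0 higher and the target list 1 higher. After trend subtraction the cilium list had 1 higher and 2 lower and the target list 1 higher, and with no pseudocount the target list had 1 at least 1.5-fold lower. With dimmer genes left out, 1 of the 2 genes of ligand release that remain was higher. Of 404 recomputed values 392 moved by less than 0.24 (log2), or, for counts, by no more than 1.5 times. None of those past 1.5-fold changed sign. Much of this agreement was fixed in advance. Centring subtracted a median of 0, and a pseudocount cannot turn the sign of a single cluster. Among the members, the brightest cluster could change only Sufu, and clusters with several symbols changed only Shh. The limit of 0.24 also exceeds the medians of the 5 other pathway lists (0.05 to 0.21), so it says little of those medians. No paired analysis was possible because each group has 1 array.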
